A study of Mus musculus with 2 samples.

Results

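Lhx2, Emx2, Otx1, Lmo1, Six3, Meis2, Zic1 and Msx1 are regulators that lay out the embryonic forebrain, and their transcripts were followed here through the cell classes of the adult mouse striatum. They are 8 of the 32285 genes counted, found in both libraries by their symbols, and were chosen by their levels in earlier results of these data, in astrocyte-like cells against neuron-like and neuroblast-like cells. Their levels in astrocytes against neurons and neuroblasts, and between Crym+ and Crym- astrocytes, are therefore descriptions and carry no test. The working name given to the set, forebrain patterning factors kept in adult astrocytes, was read here as a highest level in astrocytes. Read so, it held for 4 of the 8 genes: Lhx2, Emx2, Otx1 and Lmo1 were highest in astrocyte-like cells in both libraries. The data went against that reading for the other genes, since Six3 was highest in neuron-like cells, Meis2 in neuroblast-like cells, Zic1 in mural-like cells and Msx1 in endothelial-like cells. Their transcripts were still counted in astrocyte-like cells, with Meis2 and Six3 there above Zic1 and Msx1.

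The study asked how astrocytes of a single brain region differ from one another, with Crym (the gene of the thyroid-hormone-binding protein μ-crystallin) as the gene that divides them. Replicate libraries 1 and 2 of untreated striatum were used, made with 10x Genomics chemistry from a suspension that the labels call glia enriched, so that neurons are few by design. The mice were 8 to 10 weeks old in the sample labels, which give the strain as C57/Bl6J while the preparation text names C57BL/6NTac. The labels give no treatment and name no allele or transgene for either library, and by the study's methods the slices and the digestion and trituration solutions held actinomycin D, an inhibitor of transcription. The same methods name male mice of a slightly younger age. Nothing in the labels says that the libraries came from separate animals, so every spread and p value below covers these 2 libraries only.

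Patterning factors of this kind act in the embryo as a coordinate system. SIX3 and LHX2 define the anterior neural plate and eye field, EMX2 and LHX2 the dorsal telencephalon that becomes cortex, OTX1 the forebrain and midbrain, MEIS2 the lateral ganglionic eminence that becomes striatum, and ZIC1 and MSX1 the dorsal midline and roof plate. Astrocytes descend from the same regional progenitors as the neurons around them, and neuroblasts continue to be born beside the striatum in the subventricular zone of the adult.

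The start sites of 3 genes with different class patterns are shown to place them on the genome: Lhx2, highest in astrocyte-like cells, Lmo1, high in astrocyte-like and OPC-like cells, and Msx1, highest in endothelial-like cells. Each run is the 250 bases before the RefSeq start on GRCm38.p6, read 5′ to 3′ on the strand of the gene and lying outside the GENCODE M21 gene body. Capitals mark TAATTA, the core bound by many homeodomain proteins, and GGGCGG, the GC box, on either strand.
Lhx2: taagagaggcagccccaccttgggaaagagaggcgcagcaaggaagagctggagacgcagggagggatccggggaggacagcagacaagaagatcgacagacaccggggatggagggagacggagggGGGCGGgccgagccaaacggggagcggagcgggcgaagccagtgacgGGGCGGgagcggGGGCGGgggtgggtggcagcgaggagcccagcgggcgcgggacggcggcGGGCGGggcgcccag
Lmo1: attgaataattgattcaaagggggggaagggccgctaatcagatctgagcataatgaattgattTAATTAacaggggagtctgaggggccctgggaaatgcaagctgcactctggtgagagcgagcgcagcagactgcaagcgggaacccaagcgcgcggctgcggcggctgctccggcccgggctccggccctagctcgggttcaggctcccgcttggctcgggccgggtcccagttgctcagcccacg
Msx1: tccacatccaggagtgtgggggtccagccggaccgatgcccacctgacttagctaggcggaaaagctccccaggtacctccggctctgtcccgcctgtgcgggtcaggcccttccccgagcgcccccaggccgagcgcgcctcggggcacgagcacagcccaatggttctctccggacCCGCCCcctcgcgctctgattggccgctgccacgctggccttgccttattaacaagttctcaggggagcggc
The Lhx2 run is chr2:38339031-38339280 on the plus strand and precedes a gene at chr2:38339281-38369733. The Lmo1 run is chr7:109175208-109175457 on the minus strand and precedes a gene at chr7:109138572-109175207. The Msx1 run is chr5:37824586-37824835 on the minus strand, and the gene lies at chr5:37820485-37824583. RefSeq starts were matched for 7 of the 8 genes and gave 9 windows, with a further window each for Lhx2 and Lmo1. TAATTA was present in 2 of the 9 windows, against 4.84% of all 32851 promoter windows of this length. Both are windows of Lmo1 that overlap and hold the same single match, so it was found for 1 gene. GGGCGG was present in 5 of the 9 against 32.7% of all windows: those printed for Lhx2 and Msx1, those of Zic1 and Emx2, and the other Lmo1 window, chr7:109175150-109175399, which overlaps the printed one and reaches into the gene. The TATA box letters TATAAA were present in 1 window, that of Meis2, against 12.4%. The 9 windows held 7 to 29 CpG dinucleotides, where the median window held 6. These matches describe the letters and not a binding site.

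The other genes lie at chr19:59458372-59465357 (Emx2), chr11:21994764-22002897 (Otx1), chr17:85613608-85629302 (Six3), chr2:115863064-116065839 (Meis2) and chr9:91358058-91365810 (Zic1) on GRCm38. Of these loci, 3 overlap a gene on the opposite strand that was looked up here, and overlaps with further genes were not searched. Six3 overlaps Six3os1 at chr17:85600651-85618398, Emx2 overlaps Emx2os at chr19:59425104-59458635, and Zic1 overlaps Zic4 at chr9:91362413-91389348. The sources used here do not state whether reads were counted by strand, so whether reads from the overlapped parts were kept apart is not known here.

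After removal of cells with fewer than 300 genes and of called doublets, 6783 cells of library 1 and 5212 of library 2 remained, from totals of 44597660 and 37982720 unique molecular identifiers (UMIs, the counted molecules). They formed 13 clusters that were named by fixed marker genes, and the names carry the ending "-like" for that reason. The 9 classes compared held 2561 astrocyte-like, 1661 neuroblast-like, 366 neuron-like, 827 OPC-like (oligodendrocyte precursor), 2212 oligodendrocyte-like, 2140 microglia-like, 172 macrophage-like, 1405 endothelial-like and 555 mural-like cells. The genes described here and the listed patterning genes were left out when cells were clustered. The libraries shared 8 cell barcodes among the cells analysed. The astrocyte-like class took in 381 of the 434 cells that separated as ependymal-like at a finer clustering, which carried 5.78% of its UMIs.

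Levels are UMIs per 1000000 (CPM) of the summed counts of a class in a library, given for library 1 and then library 2, with the mean ± SD over the 2 libraries where a mean is given. Lhx2, a LIM-homeodomain factor needed for cortex and eye, was the clearest astrocyte gene of the set. It stood at 296 and 270.5 CPM in astrocyte-like cells (mean 283 ± 18.2, n = 2), from 1331 and 1174 UMIs. Neuroblast-like cells followed with 98.3 and 110 CPM, OPC-like cells with 26.2 and 26.4 CPM, and neuron-like cells with 17.5 and 5.34 CPM. Astrocyte-like, neuroblast-like and OPC-like cells kept this order without overlap between libraries, whereas neuron-like and mural-like cells (8.10 and 6.25 CPM) did. All other classes lay at or below 5.64 CPM.

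Emx2, a homeodomain factor that sets the areas of the cortex, gave the same order. Its levels were 48.7 and 47.5 CPM in astrocyte-like cells (mean 48.1 ± 0.91, n = 2), 16.1 and 17.2 CPM in neuroblast-like cells and 5.67 and 6.52 CPM in OPC-like cells. Neuron-like cells held 2 UMIs in each library, and from there down the classes overlapped. The overlapping antisense transcript Emx2os, named here for that overlap after its values were seen, stood at 28.9 and 27.6 CPM in astrocyte-like cells and at 2.25 and 5.61 CPM in neuroblast-like cells.

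Otx1, a homeodomain factor of forebrain and midbrain, was present at a low level. Astrocyte-like cells held 17.6 and 20.5 CPM from 79 and 89 UMIs, and neuroblast-like cells 6.32 and 7.26 CPM from 45 and 22 UMIs. Neuron-like cells held 3 UMIs and none, and no other class exceeded 3 UMIs in a library. Its order beyond the leading pair could not be read at this depth.

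Lmo1 encodes a LIM-only protein without a homeodomain that binds the cofactor LDB1 in place of LIM-homeodomain factors. It stood at 68.6 and 129 CPM in astrocyte-like cells (mean 99.0 ± 43.1, n = 2), the widest relative spread between libraries among the 4 astrocyte-leading genes. OPC-like cells reached 57.7 and 64.9 CPM, a range that lay just below the lower astrocyte value. Neuroblast-like cells held 22.2 and 31.4 CPM and macrophage-like cells 20.0 and 12.5 CPM from 12 and 6 UMIs, while neuron-like cells held 1 and 7 UMIs. With the cells called as doublets kept, Lmo1 no longer led in astrocyte-like cells in both libraries. The same held with cells limited to under 20% mitochondrial UMIs.

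Six3, a homeodomain factor of the sine oculis family of the anterior forebrain that is also known in striatal neurons, was highest in neuron-like cells at 131 and 113 CPM (mean 122 ± 12.9, n = 2). Astrocyte-like cells followed at 77.2 and 109 CPM (mean 93.1 ± 22.4, n = 2), OPC-like cells at 36.9 and 51.9 CPM and neuroblast-like cells at 29.2 and 40.3 CPM. By class level neurons lay above astrocytes without overlap between libraries. In library 2 the counting intervals did overlap, at 94.2 to 134 CPM in neuron-like and 99.4 to 119 CPM in astrocyte-like cells. There 93 of the 127 neuronal Six3 UMIs came from 18 cells of a subcluster described below. The main neuron-like subcluster stood below the astrocyte level in library 2, at 51.6 CPM, and above it in library 1, at 114 CPM. OPC-like and neuroblast-like cells overlapped, and the other classes held 4.17 CPM or less. With cells limited to under 20% mitochondrial UMIs the top place turned, and Six3 was highest in astrocyte-like cells in both libraries. The classes themselves changed under that limit. Neuron-like cells went from 366 (median 4463.5 UMIs) to 912 (median 1842.5 UMIs), and astrocyte-like cells from 2561 to 1935. The overlapping Six3os1, also named after its values were seen, had another order, with 47.2 and 83.2 CPM in astrocyte-like cells against 12.7 and 22.3 CPM in neuron-like cells.

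Meis2, a TALE-class homeodomain factor of the ganglionic eminences, was a gene of neuroblasts and neurons first. It stood at 1281 and 1035 CPM in neuroblast-like cells (mean 1158 ± 174, n = 2), with neuron-like cells at 711 and 608 CPM and astrocyte-like cells at 242 and 242 CPM (SD 0.14, n = 2). OPC-like cells held 84.5 and 75.8 CPM. These 4 places did not overlap, and below them endothelial-like, mural-like and oligodendrocyte-like cells could not be ordered.

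Zic1, a zinc-finger factor of the dorsal midline, was a mural gene in this tissue. Mural-like cells, the pericytes and smooth muscle of vessels, held 329 and 305 CPM (mean 317 ± 17.1, n = 2) from 609 and 487 UMIs. Neuroblast-like cells held 51.2 and 29.0 CPM, neuron-like cells 11.1 and 41.8 CPM and astrocyte-like cells 18.0 and 9.68 CPM, and these overlapped with one another in that order. A finer clustering set apart 57 fibroblast-like cells from the vessels' wall, and Zic1 stood at 380 and 451 CPM in them and at 323 and 288 CPM in the remaining mural-like cells.

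Msx1, a homeodomain factor of the roof plate, was highest in endothelial-like cells at 34.7 and 32.1 CPM (mean 33.4 ± 1.82, n = 2). Astrocyte-like cells held 12.2 and 23.7 CPM from 55 and 103 UMIs and overlapped with mural-like cells at 16.7 and 14.4 CPM. Neuroblast-like cells held 6.04 and 6.93 CPM, and neuron-like cells held no UMI and 1 UMI. Levels below these came from 4 UMIs or fewer.

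**Figure D1:**
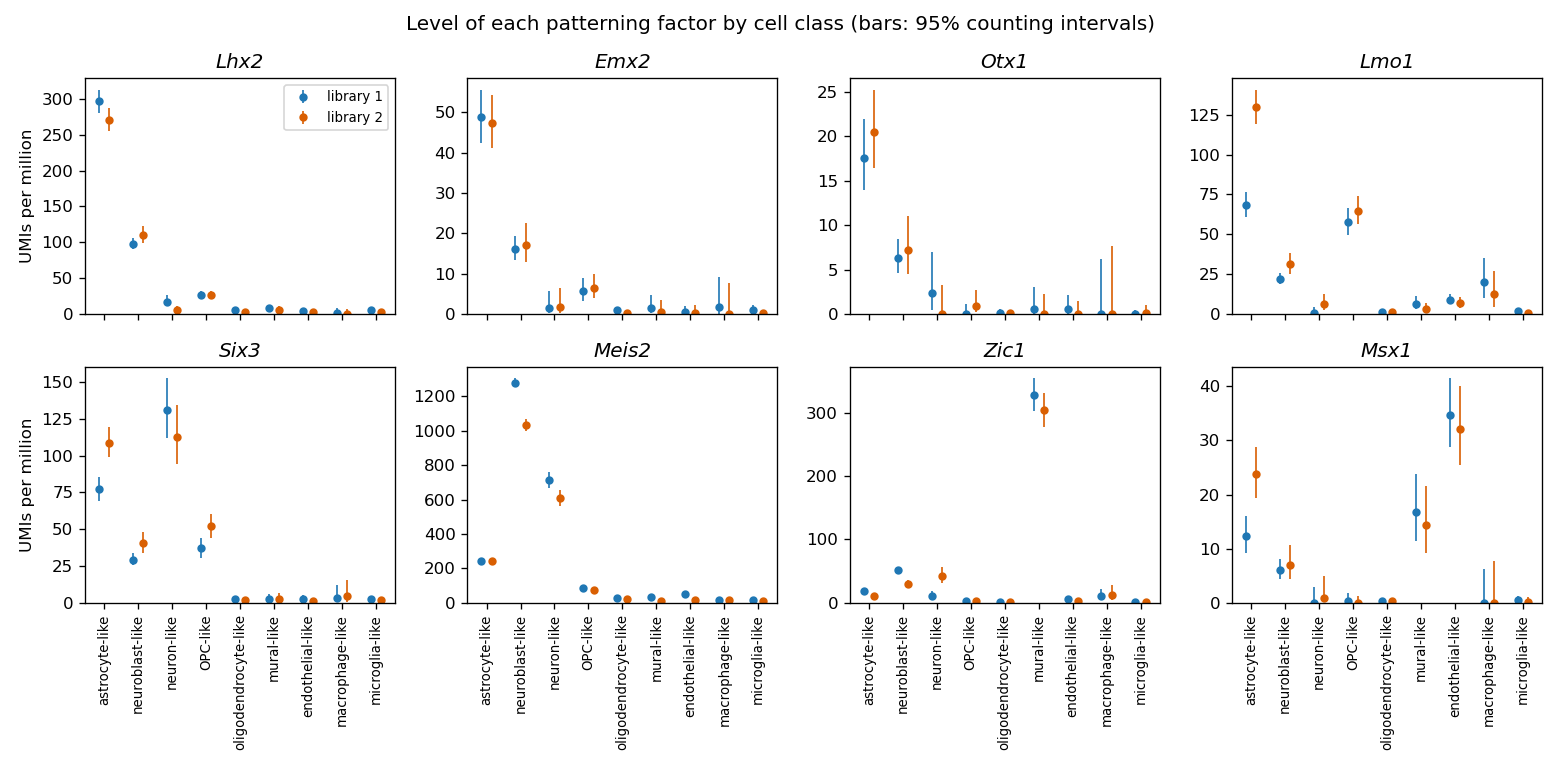
UMIs per 1000000 (CPM) of each gene (vertical axis, linear, from 0) in 9 cell classes; blue and orange points are libraries 1 and 2 and bars are 95% Poisson intervals of the counts. Lhx2, Emx2, Otx1 and Lmo1 peak in astrocyte-like cells, Six3 in neuron-like, Meis2 in neuroblast-like, Zic1 in mural-like and Msx1 in endothelial-like cells.

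The fitted differences follow from these levels. Of all 15525 genes tested, 25.0% were higher and 23.4% lower in astrocyte-like than in neuron-like cells. For the genes chosen, the log2 difference between these classes was 4.91 ± 0.31 (SE) for Lhx2, 5.10 ± 0.50 for Emx2 and 5.12 ± 0.50 for Lmo1. Because few UMIs stood on the neuronal side, the ratio in each library is also given, with its exact 95% counting interval. These ratios use library totals alone, while the log2 differences were fitted with the TMM scaling factors of edgeR. Lhx2 was 16.9 times higher (11.1 to 27.1) in library 1 and 50.6 times higher (23.2 to 138) in library 2. Emx2 was 30.6 times (8.38 to 255) and 26.7 times (7.29 to 222) higher. Lmo1 was 86.2 times (15.4 to 3415) and 20.8 times (10.0 to 51.9) higher. Otx1 was 7.37 times (2.43 to 36.5) higher in library 1 and at least 7.68-fold higher in library 2, where the neuronal count of 0 was replaced by a floor of 3 UMIs. Msx1 was at least 5.13-fold higher in library 1 by the same floor and 26.7 times (4.68 to 1063) higher in library 2. The intervals cover counting error only.

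The other genes did not separate astrocytes from neurons in this direction. Meis2 had a log2 difference of -1.14 ± 0.28, a fold of 0.454 with TMM scaling. By library totals alone, astrocyte-like cells stood at 0.340 (0.311 to 0.372) and 0.398 (0.361 to 0.439) of the neuronal level. Between these classes library totals alone moved the median log2 difference of all genes by -0.29. By library totals Six3 stood at 0.588 (0.487 to 0.713) and 0.964 (0.791 to 1.18) of the neuronal level. Its fitted log2 difference of -0.12 ± 0.21 changed sign between the libraries taken alone (-0.48 and 0.21). In library 2 the direction of Six3 thus depended on the scaling. Zic1 went in opposite directions, with 1.62 times (0.911 to 3.09) the neuronal level in library 1 and 0.231 times (0.149 to 0.358) in library 2.

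Against neuroblast-like cells 27.3% of all genes tested were higher and 27.9% lower. Of the genes chosen, 6 were higher in astrocyte-like cells, with log2 differences of 1.53 ± 0.21 for Lhx2, 1.64 ± 0.27 for Emx2, 1.58 ± 0.43 for Otx1, 1.98 ± 0.29 for Lmo1, 1.53 ± 0.21 for Six3 and 1.54 ± 0.34 for Msx1. Meis2 (-2.14 ± 0.28) and Zic1 (-1.46 ± 0.37) were lower. Each library taken alone gave the same sign for all 8 genes.

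Between neuroblast-like and neuron-like cells 28.5% of all genes tested were higher and 24.6% lower. For these classes, whose levels entered the choice of these genes through the astrocyte comparisons and are therefore also only described, the log2 difference was 3.37 ± 0.32 for Lhx2, 3.46 ± 0.58 for Emx2, 3.14 ± 0.58 for Lmo1 and 1.00 ± 0.27 for Meis2. Six3 went the other way at -1.65 ± 0.22. Zic1, at 0.80 ± 0.43, had opposite signs in the libraries taken alone (2.35 and -0.39). Otx1 and Msx1 had values of 2.58 ± 0.87 and 4.01 ± 0.96. Neuron-like cells held 3 and 0 UMIs of Otx1 and 0 and 1 of Msx1, and a floor of 3 UMIs replaced 0. By library totals Otx1 stood at 2.65 times (0.850 to 13.3) the neuronal level in library 1 and at least 2.72-fold in library 2. Msx1 stood at least 2.53-fold higher in library 1 and at 7.79 times (1.25 to 322) in library 2. The log2 differences between these classes depended on which cells were counted as neuroblast-like. A finer clustering set apart 530 of them in a cluster led by cycling genes, and without those cells the log2 difference came to 1.89 for Lhx2, 2.32 for Emx2, 1.87 for Lmo1, 0.53 for Otx1, 0.84 for Msx1, 1.76 for Meis2 and -2.44 for Six3.

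**Figure D2:**
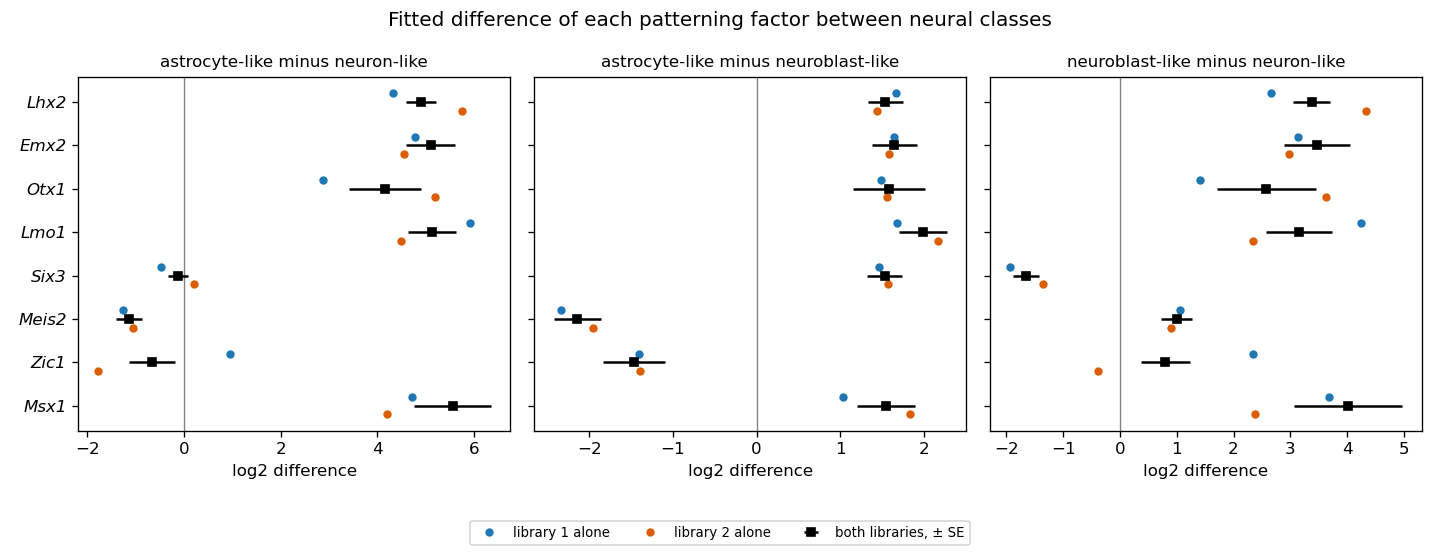
Log2 difference (horizontal axis) of each gene in 3 comparisons of neural classes; black squares with bars are the fit over both libraries ± SE, and blue and orange points are the libraries taken alone. The libraries alone were computed with a larger prior count than the fit, so a fit can lie outside both. In the middle panel 6 genes lie between 1.53 and 1.98, and Meis2 and Zic1 lie below 0.

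Free RNA from broken astrocytes can give UMIs in other cells, so the genes were set beside 10 astrocyte markers of the same libraries. In neuron-like cells the markers stood at a median of 4.65% of their astrocyte level in library 1 (range 3.17% to 6.77%) and 1.52% in library 2 (0.69% to 4.91%). Lhx2 stood at 5.91% and 1.97%, Emx2 at 3.26% and 3.75% and Lmo1 at 1.16% and 4.81%, inside the range of the markers or below it, and whether neurons made these transcripts was not tested. Otx1 stood at 13.6% in library 1, above the markers, from 3 UMIs, and had no UMI in library 2. In neuroblast-like cells the markers stood at a median of 5.96% and 6.95%, with highest values of 11.7% and 16.5%. Lhx2 stood there at 33.2% and 40.8%, Emx2 at 33.1% and 36.2%, Otx1 at 35.9% and 35.4% and Lmo1 at 32.3% and 24.2%, each above every marker. These are values of the whole class, a mixture described below. Its postmitotic subcluster held Lhx2 at 13.7 and 7.2 CPM and Lmo1 at 1.6 and 1.4 CPM. Its Gfap-led subcluster, in which astrocyte markers were raised, held them at 439 and 335 CPM and at 69.6 and 42.8 CPM. In microglia-like cells, which should lack all of them, Lhx2 stood at 1.90% and 1.35%.

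**Figure D3:**
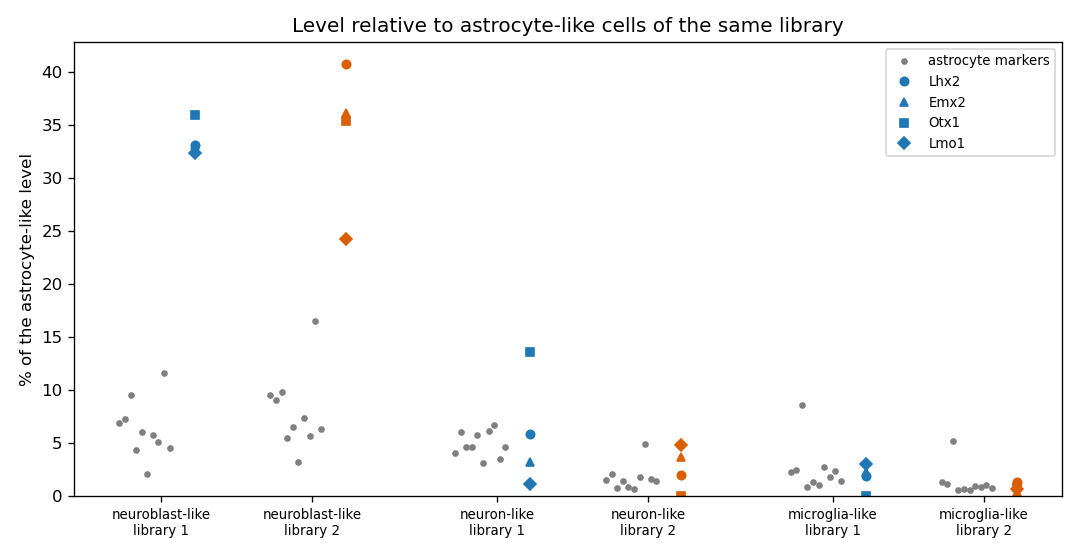
Level of 10 astrocyte markers (grey points) and of Lhx2, Emx2, Otx1 and Lmo1 (coloured symbols, blue for library 1 and orange for library 2) as a percentage of the level in astrocyte-like cells of the same library (vertical axis). In neuroblast-like cells, taken as a whole mixed class, the coloured symbols lie at 24.2% to 40.8%, above all markers. In neuron-like cells they lie among or near the markers except Otx1 in library 1, which rests on 3 UMIs.

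The share of cells with a UMI gave the same picture at the level of single cells. Lhx2 was found in 35.3% of astrocyte-like cells of library 1 (exact binomial 95% interval 32.9% to 37.8%) and 43.4% of library 2 (40.4% to 46.5%), at median depths of 1629 and 2356 UMIs per cell. Microglia-like cells were deeper, with medians of 6936.5 and 5498 UMIs, and it was found in 3.41% and 1.86% of them. With every cell thinned to 1000 UMIs, which left out 595 astrocyte-like cells below that depth, the shares of Lhx2 were 20.3% and 17.1% in astrocyte-like cells against 0.49% and 0.41% in microglia-like cells. Meis2 was found at that depth in 21.0% and 22.5% of astrocyte-like cells and in 68.9% and 62.0% of neuroblast-like cells. Six3 was found in 6.10% and 8.84% and Lmo1 in 4.38% and 7.97% of astrocyte-like cells. At 1000 UMIs per cell, 53.0% and 51.3% of astrocyte-like cells held none of the 8 transcripts, 10.3% and 11.9% held 2 of them and 1.33% and 2.07% held 3, so co-expression of the set within a cell could be seen in few cells at this depth.

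The neuroblast-like class was a mixture, and the genes divided it. Re-clustering without the genes described here gave a postmitotic subcluster of 530 cells led by Stmn2 and Nrep, a shallow subcluster of 600 cells led by Calb2, a cycling subcluster of 334 cells led by Pclaf and Top2a, and a subcluster of 116 cells led by Gfap, Fxyd1 and Thbs4 in which astrocyte markers were raised. A further 68 cells carried OPC markers, and 13 were led by Ccdc153. Subclusters are named by these genes and their levels are given with no test.

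Lhx2 stood at 13.7 and 7.2 CPM in the postmitotic subcluster, at 120 and 122 CPM in the cycling subcluster and at 439 and 335 CPM in the Gfap-led subcluster. The Gfap-led cells were 5.49% and 10.5% of the class and carried 36.0% and 39.8% of its Lhx2 UMIs. Emx2 followed Lhx2, with 9.2 CPM and no UMI, 17.7 and 18.7 CPM, and 48.7 and 52.8 CPM in the same 3 subclusters. Lmo1 stood at 1.6 and 1.4 CPM, 32.4 and 44.4 CPM, and 69.6 and 42.8 CPM. The transcripts of these astrocyte-leading genes in the neuroblast-like class thus lay mainly in its cycling and Gfap-led cells.

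The cycling subcluster also held 37 of 43 and 14 of 21 Msx1 UMIs and 30 of 45 and 13 of 22 Otx1 UMIs. By level Otx1 was higher in the Gfap-led cells, at 15.7 and 12.6 CPM from 9 and 5 UMIs against 9.17 and 8.36 CPM in cycling cells. Msx1 stood at 6.96 and 10.1 CPM in the Gfap-led cells, from 4 UMIs in each library, against 11.3 and 9.01 CPM in cycling cells. Cycling cells were deep, with a median of 14255 UMIs, and carried 45.9% and 51.3% of all UMIs of the class. Meis2 was highest outside the cycling and Gfap-led cells, with 2059 and 2111 CPM in the postmitotic subcluster, 2555 and 2410.5 CPM in the shallow Calb2-led subcluster, 587 and 517 CPM in the cycling subcluster and 858 and 639 CPM in the Gfap-led subcluster. Zic1 was highest in the Calb2-led cells at 88.3 and 78.7 CPM and stood in cycling cells at 37.9 and 18.7 CPM. Without the Gfap-led cells the class held 68.4 and 76.4 CPM of Lhx2 and 13.3 and 11.8 CPM of Emx2. Without the cycling subcluster alone it held 80.2 and 97.6 CPM of Lhx2, 14.8 and 15.6 CPM of Emx2, 3.89 and 6.10 CPM of Otx1 and 1.56 and 4.74 CPM of Msx1. The 530 cells of the finer cluster took in more than these, with all 334 cycling cells, 90 of the 116 Gfap-led cells and all 68 cells with OPC markers. With those 530 cells left out, the log2 difference between astrocyte-like and neuroblast-like cells grew to 3.05 for Lhx2, 2.82 for Emx2, 3.64 for Otx1, 3.27 for Lmo1, 2.35 for Six3 and 4.73 for Msx1, and reached -2.88 for Meis2 and -1.89 for Zic1.

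The astrocyte-like class re-clustered into 4 groups. A shallow group of 996 cells (median 1103 UMIs) was led by neuronal transcripts, among them Sst and Npy. The next held 864 cells and was led by Thbs4, Gm26917 and Kcnq1ot1, a deep group of 632 cells (median 8096 UMIs) was led by Tmem100 and Ezr, and the smallest, of 69 cells, by Igsf1 and Agt. Neuronal transcripts, and depth, thus moved with the subclusters, and their part in the levels was not tested.

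The 69 Agt-led cells, 12 in library 1 and 57 in library 2, stood apart from all other astrocyte-like cells. They held 1 Lhx2 UMI in library 1 and none in library 2, which at a floor of 3 UMIs is 9.05 CPM or less in library 2 against 338 CPM in the deep Tmem100-led cells of that library. Lmo1 was at 0 and 3 UMIs, Emx2 at 1 and 1 and Crym at 1 and 4. Six3 was present in them at 55.5 and 112 CPM from 3 and 37 UMIs and Meis2 at 277 and 109 CPM from 15 and 36 UMIs. The astrocyte marker Gja1 stood at 2294 and 2382 CPM in the same cells against 1739.7 and 2086 CPM in the deep subcluster, and Slc1a2 at 2590 and 2844 CPM against 6974 and 7788 CPM.

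Otx1 was highest in the Thbs4-led subcluster among astrocyte-like cells. It stood at 31.1 and 31.9 CPM there, 19.1 and 21.2 CPM in the deep subcluster and 1.0 and 9.9 CPM in the shallow one. Meis2 kept the same order over these subclusters, at 318 and 329 CPM, 244 and 252 CPM, and 158 and 163 CPM. Lhx2 was lowest in the Thbs4-led subcluster, outside the Agt-led cells, with 126 and 110 CPM, and stood at 393 and 338 CPM in the deep one and at 243 and 262 CPM in the shallow one. Lmo1 likewise had its lowest level outside the Agt-led cells in the Thbs4-led subcluster, at 21.1 and 41.5 CPM against 87.2 and 167 CPM in the deep subcluster. Crym stood at 299 and 453 CPM in the Thbs4-led subcluster and at 1424 and 1777 CPM in the deep one. The astrocyte marker Aldoc stood at 857 and 879 CPM in the Thbs4-led subcluster against 5192 and 5013 CPM in the deep one. Gja1 stood at 1421 and 1887 CPM against 1740 and 2086 CPM, and Slc1a2 at 8296 and 7003 CPM against 6974 and 7788 CPM. Whether cell or RNA quality had a part in these levels was not tested.

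Six3 and Meis2 differed in level between the subclusters of neuron-like cells. A main subcluster of 306 cells, led by haemoglobin transcripts and carrying 8 raised endothelial markers whose part in the levels was not tested, held Six3 at 114 and 51.6 CPM and Meis2 at 743 and 623 CPM. A subcluster of 27 deep cells led by Crabp1, Th and Slc5a7 held Six3 at 211 and 219 CPM. Zic1 stood there at 8.1 and 82.5 CPM against 12.1 and 18.2 CPM in the main subcluster, so its gap lay in library 2 alone. Those cells carried 35 of the 47 neuronal Zic1 UMIs of library 2 and 2 of 14 in library 1. For Six3 the counts were 93 of 127 in library 2 and 52 of 165 in library 1. In a subcluster of 33 cells led by Rreb1, Nrp2 and Col11a1 neither Six3 nor Meis2 had a UMI in either library, where 3 UMIs would be 135 and 75.7 CPM, while Drd1, a dopamine receptor of striatal projection neurons, stood there at 269 and 353 CPM. For Meis2 that floor lies below the level of the main subcluster in both libraries, and for Six3 it does not, so a lack of Six3 in these cells was not detectable.

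**Figure D4:**
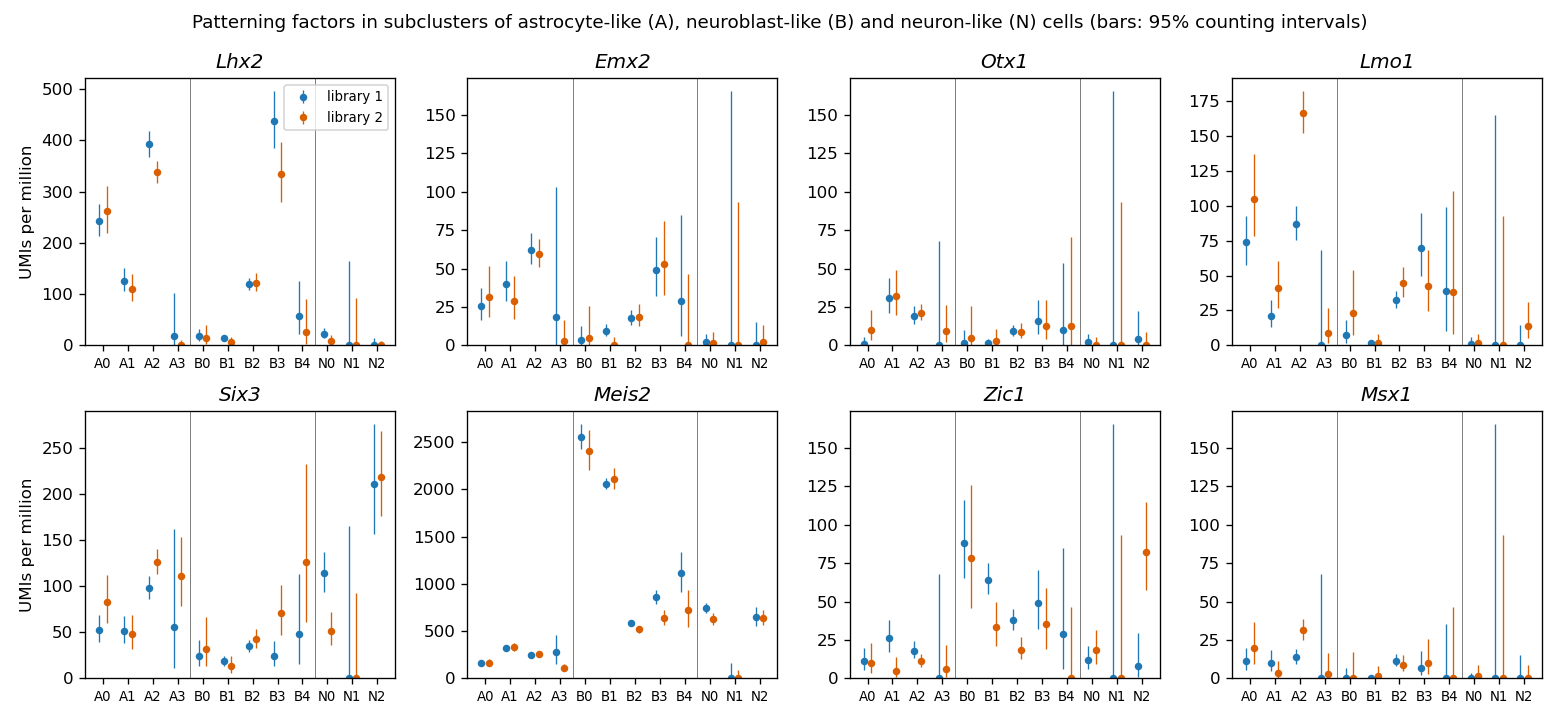
UMIs per 1000000 (CPM, vertical axis, from 0) of each gene in subclusters; A0 to A3 are the shallow, Thbs4-led, deep and Agt-led astrocyte-like cells, B0 to B4 the Calb2-led, postmitotic, cycling, Gfap-led and OPC-marked neuroblast-like cells, N0 to N2 the main, Rreb1-led and Crabp1-led neuron-like cells, and bars are 95% Poisson intervals. Lhx2 is high in A0, A2 and B3 and near 0 in A3, B1 and N2; Meis2 is highest in B0 and B1.

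Crym divided the astrocyte-like cells into 540 Crym+ and 955 Crym- cells in library 1 and 445 and 621 in library 2, with a cell counted as Crym+ above 0.25 on the natural log scale of UMIs per 10000. A cut at 1 Crym UMI gave the same numbers, so a Crym- cell is one in which no Crym UMI was counted. Crym+ cells were deeper, with median UMI totals of 2403 against 1366 in library 1 and 4928 against 1777 in library 2. Lmo1 showed the widest gap. It stood at 110 and 213 CPM in Crym+ cells and at 26.9 and 29.9 CPM in Crym- cells, a ratio of 4.09 (3.07 to 5.51) and 7.12 (5.43 to 9.49). Six3 stood at 112 and 140 CPM against 42.5 and 72.4 CPM, and Msx1 at 18.1 and 31.3 CPM against 6.27 and 14.7 CPM. Lhx2 was at 337 and 316 CPM against 255 and 216 CPM. For these 4 genes the Crym+ value was the higher in each library, which is a direction and not a call. The share of all genes with that direction was not counted. Of the 5922 genes that could be tested between the groups, 1.98% passed the threshold as higher and 3.38% as lower. Msx1 was not among the genes tested.

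Otx1 and Zic1 lay on the Crym- side. Otx1 stood at 9.74 and 10.1 CPM in Crym+ cells against 25.5 and 32.9 CPM in Crym- cells, and Zic1 at 8.85 and 5.07 CPM against 27.3 and 15.2 CPM, without overlap of the groups for either gene. Meis2 was also higher in Crym+ cells of both libraries, by less, at 251 and 270 CPM against 233 and 209 CPM. Its ratio was 1.08 (0.954 to 1.21) and 1.29 (1.14 to 1.47). That ratio came to 1.16 and 1.42 in cells matched on UMI totals and to 0.972 and 1.57 after thinning to 1000 UMIs. The groups were set on the counts before thinning, so thinning did not level the depth at which Crym was sampled. Emx2 went in opposite directions in the 2 libraries, at 44.7 and 52.8 CPM against 52.8 and 41.0 CPM. In cells matched on UMI totals Otx1 stood at 9.92 and 8.29 CPM against 27.7 and 35.8 CPM and Lmo1 at 99.8 and 186 CPM against 23.7 and 29.4 CPM, with Lmo1 ratios of 4.21 and 6.34. Lhx2 came there to 321 and 300.4 CPM against 268 and 229 CPM. Msx1 came there to 15.9 and 24.9 CPM against 5.27 and 17.2 CPM, a ratio of 3.01 and 1.44. Zic1 stood in the matched cells at 6.61 and 5.74 CPM against 28.3 and 15.3 CPM. Six3 had ratios of 2.65 and 1.96 in the matched cells, and Emx2 of 0.82 and 1.22, still in opposite directions. With every cell thinned to 1000 UMIs Zic1 came to 8.93 and 14.5 CPM against 33.2 and 15.9 CPM. The gap of library 2 was nearly gone there, from 6 against 8 UMIs. Six3 came after thinning to 82.6 and 126 CPM against 53.2 and 75.5 CPM, a ratio of 1.55 in library 1 where it had been 2.62. Emx2 came after thinning to 31.3 and 48.4 CPM against 43.2 and 55.7 CPM, lower in Crym+ cells of both libraries. These levels rest on 14 and 20 against 26 and 28 UMIs. Without the Agt-led subcluster Lhx2 stood at 338 and 319 CPM against 260 and 256 CPM.

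**Figure D5:**
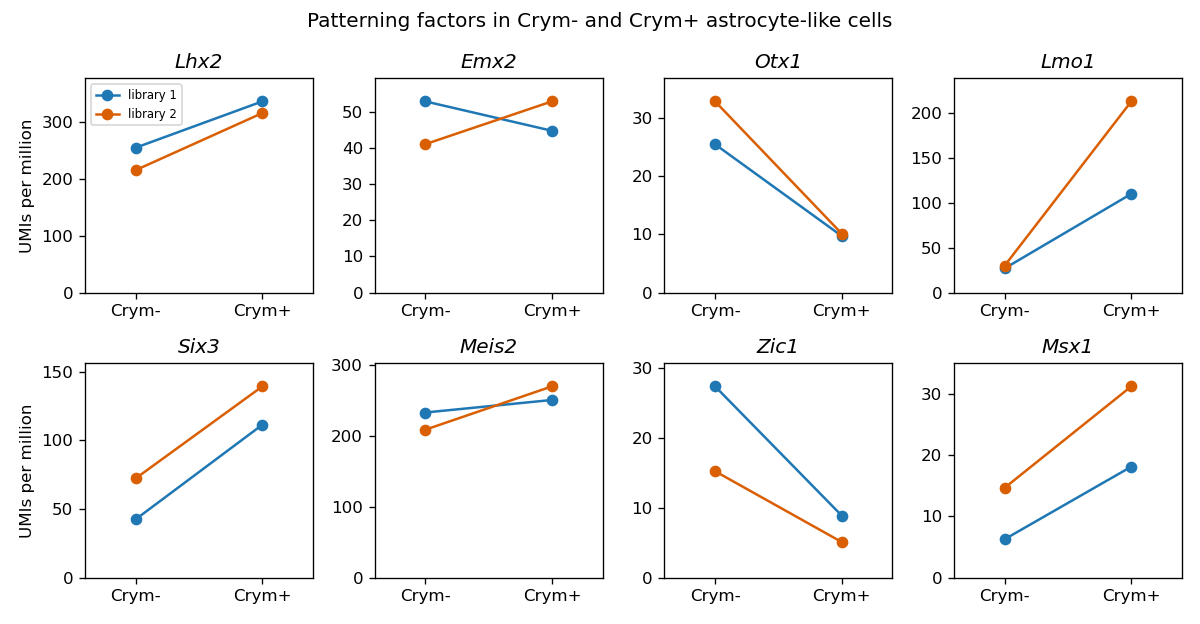
UMIs per 1000000 (CPM, vertical axis, from 0) of each gene in Crym- and Crym+ astrocyte-like cells; lines join the 2 groups of a library, blue for library 1 and orange for library 2. Lmo1, Six3, Msx1, Lhx2 and, by less, Meis2 are higher in Crym+ cells in both libraries. Otx1 and Zic1 are lower in both, and Emx2 goes up in one library and down in the other.

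Classes outside the comparisons by which the genes were chosen were tested. The choice was made with earlier results of these data known, so these tests may not be fully independent of it. The quasi-likelihood test of edgeR was used, adjusted by Benjamini and Hochberg's method across all 15525 genes, with the library as a block. Library totals alone stand for scaling without the TMM factors. Between mural-like and endothelial-like cells, 11.5% of all genes tested were higher and 14.3% lower. Zic1 was higher in mural-like cells, with a log2 difference of 5.96 ± 0.45 (edgeR adjusted p = 4.22e-08) that came to 3.24 where cells needed at least 500 genes (edgeR adjusted p = 4.98e-07), and Msx1 lower, with -1.23 ± 0.34 (edgeR adjusted p = 0.0133). After thinning to 1000 UMIs the Msx1 difference was -3.06 (edgeR adjusted p = 0.0144). The other 6 genes did not pass the test, and Otx1 and Emx2 were close to absent, with 3 UMIs or fewer in every library of both classes. Scaling by library totals alone turned the balance of all calls in this comparison from 1793 higher and 2221 lower to 2067 higher and 1686 lower, and left both calls in place.

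Between OPC-like and oligodendrocyte-like cells, the precursor and the mature stage of one lineage, 23.0% of all genes tested were higher and 28.5% lower in the precursors. Of the 8 genes, 5 were higher in OPC-like cells and none lower. The log2 difference was 4.55 ± 0.37 for Lmo1 (edgeR adjusted p = 2.17e-08), 3.64 ± 0.27 for Six3 (edgeR adjusted p = 8.01e-09), 2.22 ± 0.46 for Emx2 (edgeR adjusted p = 5.54e-04), 1.94 ± 0.28 for Lhx2 (edgeR adjusted p = 1.61e-05) and 1.04 ± 0.29 for Meis2 (edgeR adjusted p = 0.00681). The Emx2 difference was 1.35 without library 2 and 3.49 after thinning to 1000 UMIs. The Meis2 call was lost without the library block (adjusted p = 0.0758) and in the finer clusters (adjusted p = 0.0544). Oligodendrocyte-like cells held 5.41 and 2.57 CPM of Lhx2 and 1.65 and 1.28 CPM of Lmo1. This comparison depends on scaling: library totals alone moved the median of all genes by 0.81 on the log2 scale, towards OPC-like cells, and gave 7667 higher and 1627 lower genes in place of 3567 and 4421, and the 5 calls held there too.

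Other patterning genes were counted by list, 77 genes in 7 lists of which 59 could be tested in the class comparisons. The list of sine oculis homologues and their EYA partners is called the EYA list. The lists were drawn up with earlier results known. Among them 16 were higher in astrocyte-like than in neuron-like cells and 17 lower, shares near those of all genes tested, with a median log2 difference of -0.25 against 0.01 over all genes. Library totals alone moved the median of all genes by -0.29 and gave 2908 higher and 4794 lower genes in place of 3876 and 3635, with 34 listed genes called and 14 of those higher. The rostral forebrain and eye field list leaned to astrocytes, with 5 of 7 tested genes higher and none lower. Nr2e1, a nuclear receptor of neural stem cells, stood at 59.2 and 85.7 CPM in astrocyte-like cells against 1.59 and 0 CPM in neuron-like cells. Rax, which initiates the eye field, was listed at 3.78 and 6.91 CPM against no UMI, and Otx2, the close relative of Otx1, at 2.67 and 7.60 CPM against no UMI. A floor of 3 UMIs in neuron-like cells is 2.39 and 2.67 CPM, and the library 1 levels of both genes lay near it.

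The subpallium list leaned the other way, with 10 of 18 genes lower in astrocyte-like than in neuron-like cells and 3 higher. The lower ones included Isl1, which specifies striatal projection neurons, at 1.34 and 0.23 CPM against 37.4 and 65.9 CPM, and Foxp2 at 8.68 and 4.38 CPM against 143 and 194 CPM. Lhx8, a LIM-homeodomain relative of Lhx2 known in cholinergic interneurons, was at 0 and 0.46 CPM against 7.16 and 35.6 CPM. Among the LIM partners 3 of 5 tested genes were lower and none higher, including Lmo3 at 13.6 and 7.83 CPM against 110 and 109 CPM and Lmo2 at 8.68 and 2.995 CPM against 70.8 and 50.7 CPM. Between these classes Lmo1 thus lay on the other side from Lmo2 and Lmo3. Of the pallium list 3 genes of 9 were higher and 1 lower, of the TALE partners 1 of 9 higher and 2 lower, of the EYA list 3 of 7 higher and 1 lower, and of the midline and roof plate list 1 of 4 higher.

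Between astrocyte-like and neuroblast-like cells, 10 of the listed genes were higher and 28 lower, with a median log2 difference of -0.83 against 0.01 over all genes. The subpallium list had 10 of 18 genes lower and 1 higher. Dlx1 stood at 7.79 and 5.99 CPM in astrocyte-like cells against 468 and 410 CPM, and Sp8 at 3.34 and 0.92 CPM against 186 and 135 CPM. The pallium list had 6 of 9 lower, led by Eomes, with no UMI against 21.6 and 6.93 CPM, and 2 higher, among them Gli3, the transducer of hedgehog signals, at 59.4 and 99.5 CPM against 10.2 and 17.5 CPM. The rostral forebrain list had 3 of 7 higher and 3 lower, the TALE partners 5 of 9 lower and none higher, the LIM partners 1 of 5 higher and 1 lower, the EYA list 2 of 7 higher and 2 lower, and the midline list 1 of 4 each way. Emx1, the paralogue of Emx2, was lower in astrocyte-like cells (1.78 and 0 CPM against 5.61 and 8.91 CPM), and Six5 was higher (11.8 and 10.6 CPM against 2.53 and 1.98 CPM).

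Between neuroblast-like and neuron-like cells, 30 of the 59 listed genes were higher and 11 lower, with a median log2 difference of 1.26 against 0.07 over all genes. By list, 6 of 7 rostral forebrain genes, 6 of 9 pallium genes, 8 of 18 subpallium genes, 5 of 9 TALE partners, 2 of 4 midline genes, 2 of 7 genes of the EYA list and 1 of 5 LIM partners were higher, while the lower ones were 6 subpallium genes, 3 LIM partners, 1 pallium gene and 1 gene of the EYA list. In the vascular comparison 8 of the 59 listed genes were higher in mural-like cells and 7 lower, shares near the 11.5% and 14.3% of all genes tested. Zic4, the neighbour that overlaps Zic1, rose with it in mural-like cells (110 and 85.7 CPM against 1.47 and 0.41 CPM), whereas Zic2 did not pass the test (139 and 127 CPM against 179 and 186 CPM). The vascular calls fell on the midline list (1 each way), the pallium list (2 higher), the TALE partners (2 higher), the subpallium list (1 higher, 3 lower), the LIM partners (1 each way) and the EYA list (1 higher, 2 lower), with none of the rostral forebrain genes.

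In the oligodendrocyte lineage 20 listed genes were higher in OPC-like cells and 7 lower, made up of 6 higher and 3 lower of the subpallium list, 4 and 3 of the TALE partners, 3 and 0 of the LIM partners, 3 and 1 of the EYA list, 2 and 0 of the pallium list, 2 and 0 of the rostral forebrain list and none of the midline list. With library totals alone 26 were called and 22 of those were higher, and Pbx3 and Eya3, named for this after their values were seen, changed sign. Lmo3 and Lmo4 rose with Lmo1, to 21.8 and 24.2 CPM against 2.03 and 0.93 CPM and to 139 and 175 CPM against 7.44 and 7.77 CPM. Nkx6-2, a factor of myelinating cells, fell in the precursors, with 57.4 and 31.1 CPM against 505 and 594 CPM. Between Crym+ and Crym- astrocyte-like cells, 11 listed genes were found in at least 10% of cells and could be tested, and 1, Nkx6-2, was lower in Crym+ cells (26.6 and 55.4 CPM against 26.0 and 141 CPM, log2 difference -0.96, edgeR adjusted p = 0.0378). Nkx6-2 is named although its libraries did not move the same way, its gap lay in library 2 alone, and the call was lost in DESeq2 and in cells matched on UMI totals. Without the Agt-led subcluster its log2 difference turned to 0.48.

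The genes most like each of the 8 were sought by Pearson's r of log2(CPM + 10) over the 18 values of 9 classes in 2 libraries, among 11303 genes that reached 20 CPM. The 18 points share libraries and depth, so r is a description. Otx1 was most like Fezf2, another forebrain factor (r = 0.99, with 34.1 and 43.1 CPM in astrocyte-like and 8.98 and 16.8 CPM in neuroblast-like cells), and Gm973 (0.98). Emx2 was most like Gldc, of the glycine cleavage system (0.98), and Aldoc (0.97), Lhx2 like Gm11266 (0.97) and Gm10561 (0.97), Lmo1 like the endothelin receptor Ednrb (0.94) and Dipk1c (0.93), and Six3 like Gpm6a (0.97) and Adgrb3 (0.97). Meis2 was most like 3110039M20Rik (0.98) and Gm5577 (0.97), and Zic1 like Zic4 (0.97) and Kirrel (0.97). Prdm16 (0.96) was among the 2 genes most like Msx1.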

How the data were processed

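Droplet single-cell RNA sequencing of 2 replicate libraries of mouse striatum was analysed, grouped by the labels. The deposited values are raw counts of UMIs per gene and cell, made by the authors with Cell Ranger 4.0 on mm10, and whether reads were counted by strand is not given in the sources used here. The 8 genes and the 7 gene lists were chosen with earlier results of these data known. Library totals were 44597660 and 37982720 UMIs, with medians of 3852 and 5375 UMIs per barcode over 6978 and 5437 barcodes, and this depth sets the counting intervals. No column of per-sample values was left unused.

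Cells with at least 300 genes and genes found in more than 3 cells were kept. Doublets were called with Scrublet in scanpy 1.11.5 (expected rate 6%) and 115 and 152 cells were removed. Libraries were integrated with Seurat 5.3.0 (2000 variable genes, 30 components, resolution 0.08), with 86 reported genes and 97 cell-cycle genes left out of the features. A cluster was named where at least 3 fixed markers were raised at least 2-fold and 1 was among its 50 leading genes. An erythroid class of 96 cells, with 11 in library 2, fell below 20 cells in a library and was left out.

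UMIs were summed per class and library and fitted across genes with edgeR 4.0.16 (quasi-likelihood test, TMM scaling, library as a block, prior count 0.125, Benjamini-Hochberg adjustment, threshold 0.05) in R 4.3.3. A class of a library comes from the same cell suspension as the other classes of that library, which is what the block pairs. The SE of a log2 difference was derived from that difference and its F statistic. Libraries taken alone were compared by log2 CPM with a larger prior count. Genes entered the Crym fit where at least 10% of cells held a UMI. The levels of the 8 genes in astrocytes, neurons and neuroblasts and in the Crym groups chose them, so they carry no p there. In addition to the 8 genes, members of their gene families, the 4 listed genes with the largest called rise and the 4 with the largest fall in each comparison with the same sign in both libraries, and the 2 genes most like each gene could be named. Some genes that this rule names are not reported here. Ratios of counts have exact 95% intervals, a count of 0 was replaced by a floor of 3 UMIs, and both cover counting error only. The tests were tried on simulated counts for 15525 genes: for mural-like against endothelial-like cells they recovered 49.5% of genes changed 2-fold and 79.0% of those changed 4-fold, and for OPC-like against oligodendrocyte-like cells 55.8% and 90.6%. All simulated classes shared a mean profile and 200 genes were changed. These rates therefore do not cover comparisons in which far more genes differ and scaling moves the median. Alternatives were DESeq2 1.42.0, library totals alone, no block, no filter on low counts, resolution 0.32, doublets kept, at least 500 genes, under 20% mitochondrial UMIs, thinning to 1000 UMIs, matched UMI totals, each library alone and, chosen after the data were seen, leaving out the ependymal, cycling or Agt-led cells.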

Additional observations from a re-analysis of the deposited data

How the results depend on the processing

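The calls of the 8 genes in the vascular and oligodendrocyte comparisons kept their direction under every alternative run. Called listed genes did not all do so: the sign turned for Pbx3 and Eya3 in the oligodendrocyte lineage with library totals alone, for Eya1 between mural-like and endothelial-like cells at resolution 0.32 and after thinning, for Nkx6-2 between the Crym groups without the Agt-led subcluster or without library 2, and, without the finer cycling cluster, for Dach1, Eya4, Foxp2 and Gsx1 among others in the neuroblast comparisons. Each library alone gave 4 genes that were highest in astrocyte-like cells. The share of astrocyte-like cells with an Lhx2 UMI was 39.4% over both libraries, 35.3% to 43.4% with a library left out, 18.7% after thinning to 1000 UMIs and 47.9% in cells under 20% mitochondrial UMIs. Thinning, which by construction leaves fewer UMIs, lowered the genes called to 3701 between astrocyte-like and neuron-like cells, 4821 between astrocyte-like and neuroblast-like cells, 3733 between neuroblast-like and neuron-like cells, 2220 between mural-like and endothelial-like cells and 3965 in the oligodendrocyte lineage, and the listed genes called to 17, 25, 20 and 14 in the same order without the vascular comparison. Library totals alone moved the median of all genes between neuroblast-like and neuron-like cells by -0.20. The Crym comparison was the least stable. Its 317 genes called became 93 with DESeq2, 637 with library totals alone, 1 without the replicate block, 1053 with no filter, 608 at resolution 0.32, 533 with doublets kept, 631 with at least 500 genes, 103 after thinning, 110 at matched UMI totals, 672 without the ependymal cluster and 557 without the Agt-led subcluster. Its 1 listed gene called became 0 with DESeq2, without the block, after thinning and at matched totals, 2 under 20% mitochondrial UMIs, 3 with library totals alone or without the Agt-led subcluster, 4 at resolution 0.32, with doublets kept, with at least 500 genes or without the ependymal cluster, and 8 with no filter. The cause was not tested. Without the replicate block the listed genes called were 32, 34, 40, 12 and 26 in the class comparisons, and of the genes tested in the vascular and oligodendrocyte comparisons Meis2 alone lost its call. Low counts limit Otx1, Msx1 and every gene in neuron-like cells, and with 2 libraries no outlying library could be told.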
